A study of Mus musculus with 12 samples.

Results

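The 33 genes described here encode enzymes and regulators of cholesterol and fatty acid synthesis. They were listed by name and role, with no threshold on measured values but with earlier results of these data known, and all 33 were found among the 18911 genes of the table after Ensembl identifiers were matched to GRCm38 symbols. There were 21 sterol genes and 12 fatty acid genes. The sterol genes were 6 enzymes of the mevalonate pathway, 11 enzymes that build and trim the sterol ring, Srebf2, Scap, Insig1 and Stard4. The fatty acid genes were Srebf1, 4 enzymes of synthesis and 7 enzymes of elongation, desaturation and activation.

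Hippocampi of newborn (P0) mouse pups of 4 genotypes gave the cultures of neural progenitor cells, with 3 libraries of poly(A) RNA per genotype. Kmt2a+/+ was wild type, and Kmt2a+/LSL, a model of Wiedemann-Steiner syndrome, carried a loxP-stop-loxP cassette in an intron of 1 Kmt2a allele, which cuts its transcript short. Nes-Cre+/- Kmt2a+/LSL carried the same allele with a Cre transgene driven by nestin, which is meant to remove the cassette in the nervous system, and Nes-Cre+/- Kmt2a+/+ carried the transgene on wild-type alleles. The LSL allele was made in C57BL/6J zygotes, and nothing in the sources used here says whether libraries of a genotype came from separate litters, so p-values measure the spread between these libraries only.

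Cholesterol is built from acetyl-CoA through mevalonate, farnesyl diphosphate, squalene and lanosterol. Brain cells make their own cholesterol, because lipoprotein cholesterol of the blood does not cross the blood-brain barrier. SREBP transcription factors, held in the endoplasmic reticulum by Scap and Insig proteins when sterols are plentiful, switch on most genes of both pathways. The SREBP of Srebf2 acts mainly on cholesterol genes and that of Srebf1 mainly on fatty acid genes, often beside the factor NF-Y, which binds CCAAT boxes.

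Stretches upstream of a RefSeq transcription start are shown for 6 genes whose levels are followed through the results, because they hold the CCAAT letters that NF-Y is known to bind. The sequences are those of RefSeq on GRCm38.p6, written 5′ to 3′ on the strand of the gene. Capitals mark CCAAT or its reverse complement ATTGG, and in Hmgcs1 also the sterol regulatory element TCACNCCAC, where N is any base, and in Fasn CCAAT and ATTGG overlap. The Idi1, Cyp51 and Tm7sf2 stretches lie inside the GRCm38 gene coordinates, which begin further upstream than the RefSeq start used here.
Hmgcs1 (chr13:119690170-119690227, plus strand): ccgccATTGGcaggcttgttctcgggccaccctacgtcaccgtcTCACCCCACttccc
Idi1 (chr13:8885566-8885605, plus strand): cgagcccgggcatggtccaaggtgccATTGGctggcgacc
Cyp51 (chr5:4104704-4104743, minus strand): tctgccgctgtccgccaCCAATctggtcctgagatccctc
Tm7sf2 (chr19:6067875-6067914, minus strand): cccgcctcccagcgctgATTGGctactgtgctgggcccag
Srebf2 (chr15:82147117-82147156, plus strand): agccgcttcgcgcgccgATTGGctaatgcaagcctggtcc
Fasn (chr11:120824584-120824623, minus strand): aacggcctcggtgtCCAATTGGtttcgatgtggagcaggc

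RefSeq promoter windows, from 250 bases before to 50 after a transcription start, were at hand for 26 of the 33 genes, in 32 windows. CCAAT stood on either strand in 23 of the 32 windows (71.9%) and in 37.4% of all 32851 promoter windows. The E-box CACGTG, another site that SREBPs can bind, stood in 7 of the 32 windows (21.9%), those of Dhcr7, Elovl5, Hsd17b7, Insig1, Sc5d and Scap, against 7.15% of all windows. TCACNCCAC was found in the Hmgcs1 window alone (3.12%, against 1.24% of all windows), 137 bases before the start and downstream of a CCAAT box at 176 bases. These are matches of letters, and binding was not measured.

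Library totals ranged from 18280008 to 28596919 estimated counts, at which 3 counts correspond to 0.103 to 0.178 CPM (counts relative to a common library size, set by edgeR's TMM factors), and this floor covers counting error only. All 33 genes passed the filter on low counts, and the lowest count of any of the 33 genes in any library was 89, for Mvd. Kmt2a lay between 281 and 310 CPM in the 6 libraries of the wild-type genotypes, between 166 and 167 in Kmt2a+/LSL and between 259 and 284 in Nes-Cre+/- Kmt2a+/LSL, so that the targeted gene went with the labels. Summed neural progenitor markers (8 of 8 detected) ranged from 7079 to 15430 CPM, microglial (3 of 6 tested) and fibroblast markers summed to at most 1 and 2.19 CPM, and endothelial and mural markers (3 of 5 tested) to 1.61 to 10.4 CPM, lowest in Kmt2a+/+ replicate 1. Markers of neurons (1016 to 1917 CPM), astrocytes (767 to 3196), oligodendrocyte precursors (438 to 1382) and oligodendrocytes (138 to 443) were present in every library, with Stmn2 and Mog under 1 CPM in the mean. In these bulk libraries, fewer cells of a type and less RNA per cell cannot be told apart.

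One library stood apart before any comparison was made. Kmt2a+/+ replicate 1 had a median correlation of 0.903 with its genotype, against 0.939 to 0.984 for the other libraries, and counts in 15176 genes, against 16205 to 17073. It also had the highest sums of progenitor (15430 CPM) and neuron markers (1917 against 1016 to 1715 CPM) and the lowest sums of astrocyte, oligodendrocyte precursor and oligodendrocyte markers (767, 438 and 138 CPM). The part of these markers in the values below was not tested. The comparisons that rest on Kmt2a+/+ are therefore described with and without this library. The Kmt2a+/+ libraries that remain had the next lowest correlations, 0.943 and 0.939, each taken in part with replicate 1. They were also the next furthest from the rest in the share of genes outside the other libraries, given below.

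The most abundant of the 33 genes per length of merged exon was Scd2, the main stearoyl-CoA desaturase of brain, with a mean of 737 CPM per kb over the 12 libraries. Fads2 and Fads1, the front-end desaturases of polyunsaturated fatty acids, followed at 254 and 121 CPM per kb, on either side of Hmgcs1 at 132. Elovl5, an elongase of polyunsaturated chains, lay at 73.4 CPM per kb and Scd1 at 68. At the low end were Hsd17b7, a keto-reductase of the sterol ring, at 3.9 CPM per kb and Acss2, which makes acetyl-CoA from acetate, at 3.96. Scd2 alone had no overlap with its neighbour over the 12 libraries (458 to 953 against 113 to 396 CPM per kb for Fads2), and every other pair of neighbours overlapped. Lengths take in every annotated exon, so a gene with many unused exons is placed too low.

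**Figure D1:**
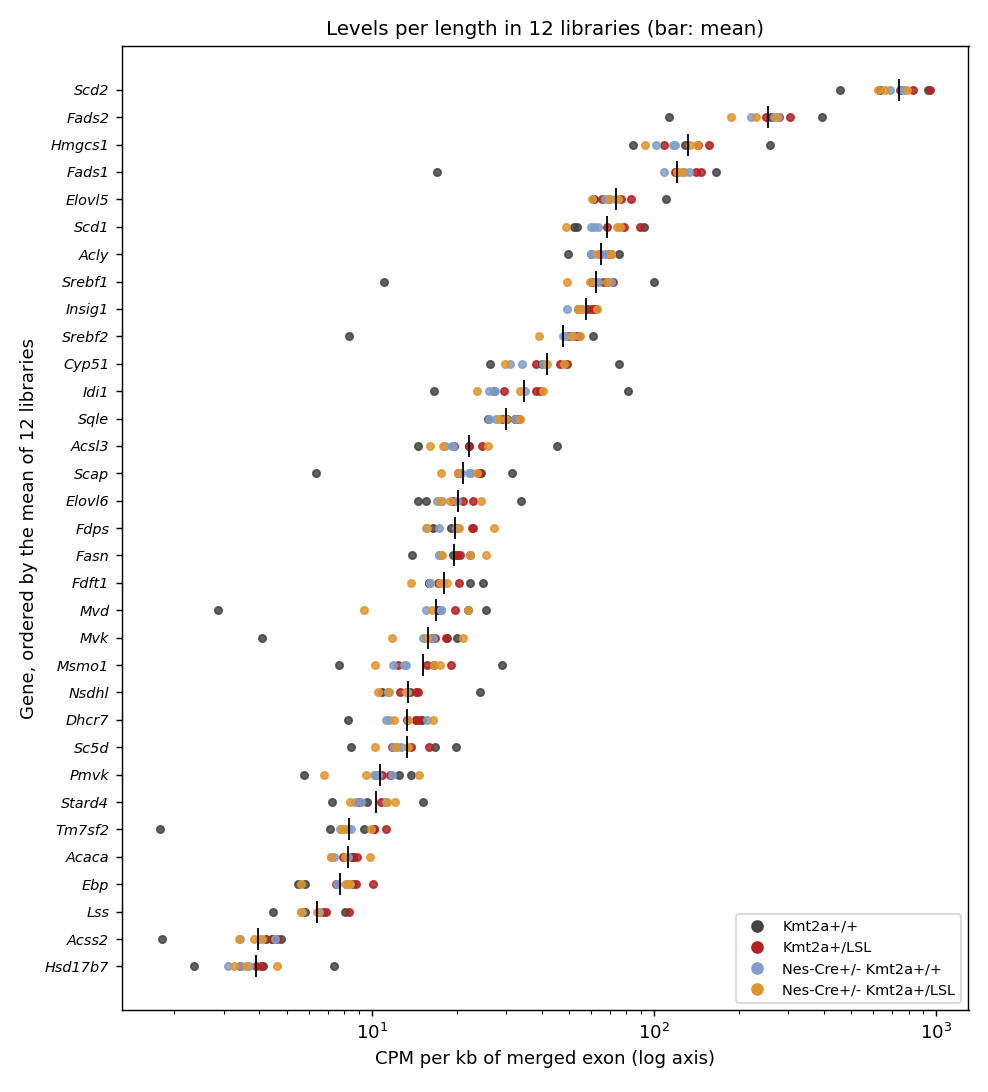
Levels of the 33 genes in CPM per kb of merged exon, on a log axis, with 1 point per library coloured by genotype and a bar at the mean of 12 libraries. Scd2 sits highest at 737 CPM per kb and Hsd17b7 lowest at 3.9, and the lone low points of Fads1, Srebf1, Srebf2, Mvd, Mvk and Tm7sf2 are Kmt2a+/+ replicate 1.

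Within the mevalonate pathway, Hmgcs1 makes the precursor of mevalonate and was the most abundant of the 6 enzymes per length (132 CPM per kb). It lay at 1184, 593 and 389 CPM in Kmt2a+/+, at 657, 721 and 498 in Kmt2a+/LSL, at 544, 469 and 537 in Nes-Cre+/- Kmt2a+/+ and at 656, 427 and 619 in Nes-Cre+/- Kmt2a+/LSL. Only the first Kmt2a+/+ library lay outside the range of 389 to 721 CPM of the other 11, and all 4 genotypes overlapped. Idi1 (ENSMUSG00000058258, chr13:8885501-8892451), the isomerase of isopentenyl diphosphate, lay at 283, 95.2 and 58.5 CPM in Kmt2a+/+, at 134, 138 and 103 in Kmt2a+/LSL, at 122, 91.5 and 96 in Nes-Cre+/- Kmt2a+/+ and at 142, 82.7 and 118 in Nes-Cre+/- Kmt2a+/LSL. The highest and the lowest Idi1 values of the series thus came from the same genotype, Kmt2a+/+.

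Both kinases, Mvk of mevalonate and Pmvk of phosphomevalonate, and the decarboxylase Mvd were lowest where Hmgcs1 and Idi1 were highest. Mvk lay at 10.9, 49.6 and 53.6 CPM there and between 31.7 and 56.4 in the other 9 libraries. Pmvk lay at 9.87, 21.4 and 23.7 CPM and between 11.6 and 25.3 elsewhere. Mvd lay at 5.29, 47.4 and 40.7 CPM and between 17.4 and 40.9 elsewhere. For all 3 genes the first Kmt2a+/+ library was the lowest of the series, while the other Kmt2a+/+ libraries were among the highest. Fdps, the farnesyl diphosphate synthase, varied less, from 65.3 to 114 CPM over all 12 libraries, and its first Kmt2a+/+ value of 69.3 CPM lay within the others.

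Of the 11 enzymes after farnesyl diphosphate, Sqle, the squalene epoxidase and a rate-limiting step, was the most even. It lay at 168, 178 and 143 CPM in Kmt2a+/+, at 178, 185 and 161 in Kmt2a+/LSL, at 179, 144 and 153 in Nes-Cre+/- Kmt2a+/+ and at 166, 157 and 186 in Nes-Cre+/- Kmt2a+/LSL, so that the genotypes overlapped throughout. Cyp51, the lanosterol demethylase and the highest of the 11 per length (41.7 CPM per kb), lay at 331, 177 and 116 CPM in Kmt2a+/+ and between 131 and 218 elsewhere. Fdft1, the squalene synthase, ranged from 58.1 to 105 CPM and Lss, the lanosterol synthase, from 48.1 to 89.7. These 3 genes also had their extreme values, high for Cyp51 and Fdft1 and low for Lss, in Kmt2a+/+ replicate 1.

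Tm7sf2 (ENSMUSG00000024799, chr19:6062821-6068373, minus strand), a sterol reductase that acts after Cyp51, had the largest estimate of the first comparison given below. It lay at 7.85, 31.3 and 41.4 CPM in Kmt2a+/+, at 49.5, 45 and 45 in Kmt2a+/LSL, at 37.3, 34 and 36.3 in Nes-Cre+/- Kmt2a+/+ and at 34.2, 35.1 and 43.7 in Nes-Cre+/- Kmt2a+/LSL. All 3 libraries of Kmt2a+/LSL were above the other 9 libraries. The genotype means were 26.9 ± 17.2, 46.5 ± 2.6, 35.9 ± 1.69 and 37.7 ± 5.22 CPM (SD, n = 3), in the same order. Of the 31-base words of its transcripts, 13.3% also occur in other genes, chiefly the adjoining Vps51, so the estimated counts could be split between them.

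The enzymes that take methyl groups off the ring, Msmo1, Nsdhl and Hsd17b7, moved alike within Kmt2a+/+. Msmo1 lay at 178, 102 and 47 CPM in its 3 libraries and between 63 and 117 elsewhere. Nsdhl lay at 69.3, 39 and 31.1 CPM and between 30 and 41.5 elsewhere, and Hsd17b7 at 37.4, 21 and 12 CPM and between 15.8 and 23.5 elsewhere. In each of them the first Kmt2a+/+ library was the highest of all 12. The late enzymes were Ebp, the sterol isomerase, at 12.7 to 23.3 CPM, Sc5d, the desaturase of the second ring, at 41.2 to 96.9 CPM, and Dhcr7, the last reductase before cholesterol, at 48.1 to 96 CPM. Stard4, a cytosolic carrier of cholesterol, ranged from 40.5 to 84.9 CPM.

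Of the 4 regulators, Srebf2, Srebf1 and Scap varied most within Kmt2a+/+. Srebf2 lay at 59.9, 390 and 439 CPM in Kmt2a+/+, at 360, 365 and 382 in Kmt2a+/LSL, at 371, 341 and 347 in Nes-Cre+/- Kmt2a+/+ and at 282, 366 and 392 in Nes-Cre+/- Kmt2a+/LSL. Srebf1 lay at 62.3, 385 and 566 CPM in Kmt2a+/+ and between 278 and 404 elsewhere, and Scap, the escort of SREBPs, at 47.1, 182 and 233 CPM and between 131 and 179 elsewhere. All 3 had the lowest value of the 12 libraries in replicate 1 and the highest in replicate 3 of Kmt2a+/+, as did the enzyme Acly. Insig1, which retains Scap and is itself a target of SREBPs, was nearly level in all 12 libraries, at 152 to 195 CPM.

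Among the fatty acid enzymes, Acaca, the acetyl-CoA carboxylase that commits carbon to fatty acids, lay between 123 and 168 CPM with overlapping genotypes. Fasn (chr11:120805846-120824547, minus strand), the fatty acid synthase, lay at 152, 212 and 245 CPM in Kmt2a+/+, at 219, 225 and 220 in Kmt2a+/LSL, at 190, 189 and 193 in Nes-Cre+/- Kmt2a+/+ and at 245, 194 and 278 in Nes-Cre+/- Kmt2a+/LSL. Apart from Kmt2a+/+ replicate 1, the 3 Nes-Cre+/- Kmt2a+/+ libraries were the lowest for Fasn. Acly, which makes cytosolic acetyl-CoA from citrate, ranged from 263 to 396 CPM and Acss2 from 18.3 to 48.5.

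Scd1, a stearoyl-CoA desaturase beside Scd2 on chromosome 19, lay at 451, 261 and 256 CPM in Kmt2a+/+, at 436, 382 and 334 in Kmt2a+/LSL, at 294, 300 and 310 in Nes-Cre+/- Kmt2a+/+ and at 372, 238 and 361 in Nes-Cre+/- Kmt2a+/LSL. Elovl6, the elongase of saturated chains, lay at 217, 99.8 and 93.6 CPM in Kmt2a+/+, at 147, 135 and 125 in Kmt2a+/LSL, at 129, 114 and 110 in Nes-Cre+/- Kmt2a+/+ and at 157, 112 and 122 in Nes-Cre+/- Kmt2a+/LSL. In both genes 2 Kmt2a+/+ libraries lay under all Kmt2a+/LSL libraries and the first lay above them. Scd2 ranged from 2504 to 5206 CPM, Fads1 from 82.1 to 802, Fads2 from 373 to 1305, Elovl5 from 212 to 388 and Acsl3, which activates long-chain fatty acids, from 63.4 to 197.

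**Figure D2:**
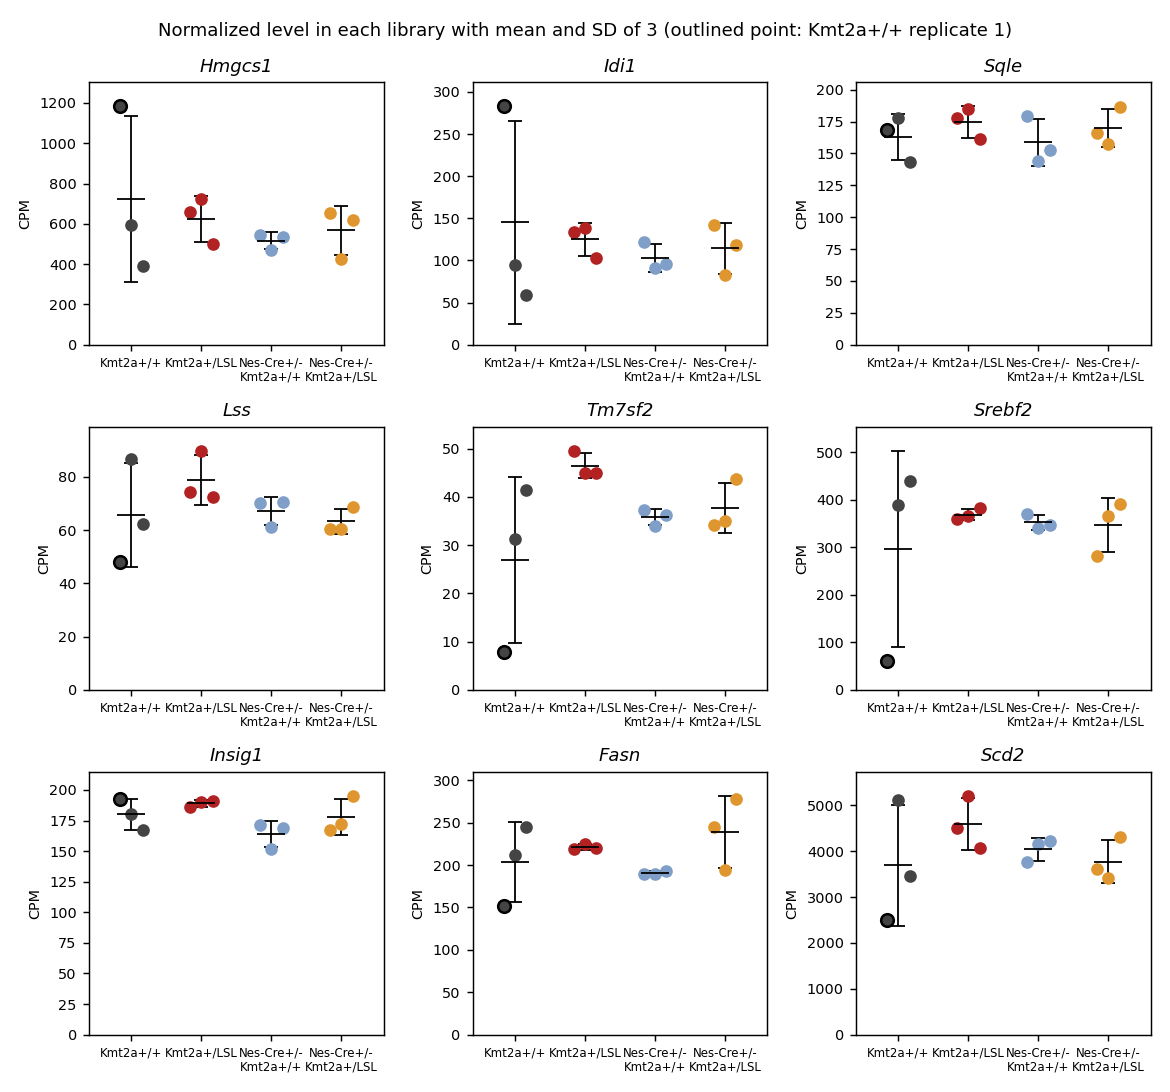
CPM of 9 of the genes in each library, by genotype, with the mean and SD of 3 libraries (horizontal bar and whiskers), and with Kmt2a+/+ replicate 1 outlined. That library is the highest for Hmgcs1 (1184 CPM) and Idi1 (283 CPM) and the lowest for Tm7sf2 (7.85 CPM), Srebf2 (59.9 CPM), Lss, Fasn and Scd2, while it lies among the others for Sqle and Insig1.

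Of the 33 genes, 28 lay outside the range of the other 11 libraries in Kmt2a+/+ replicate 1, 13 above and 15 below it. This was not particular to them: 75.4% of the 12545 genes with a mean of at least 1 CPM lay outside as well. Kmt2a+/+ replicate 3 lay outside all other libraries for 14 of the 33 genes and 40.2% of the 12545. Replicate 2 of that genotype did so for 5 of the 33 and 22%. In single libraries of the other genotypes the share was 3.93% to 13.1%, with 0 to 8 of the 33. The largest excesses over the median of the other 11 libraries were 2.75-fold for Idi1, 2.34-fold for Acsl3, 2.19-fold for Msmo1 and 2.18-fold for Hmgcs1. The largest deficits were 7.41-fold for Fads1, 6.17-fold for Mvd, 6.11-fold for Srebf2, 5.94-fold for Srebf1 and 4.75-fold for Tm7sf2. Fdps, Sqle, Ebp, Insig1 and Acaca were the 5 genes within the range. The split therefore ran through the pathway, with Hmgcs1 and Idi1 high and Mvk and Mvd low in the same library.

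**Figure D3:**
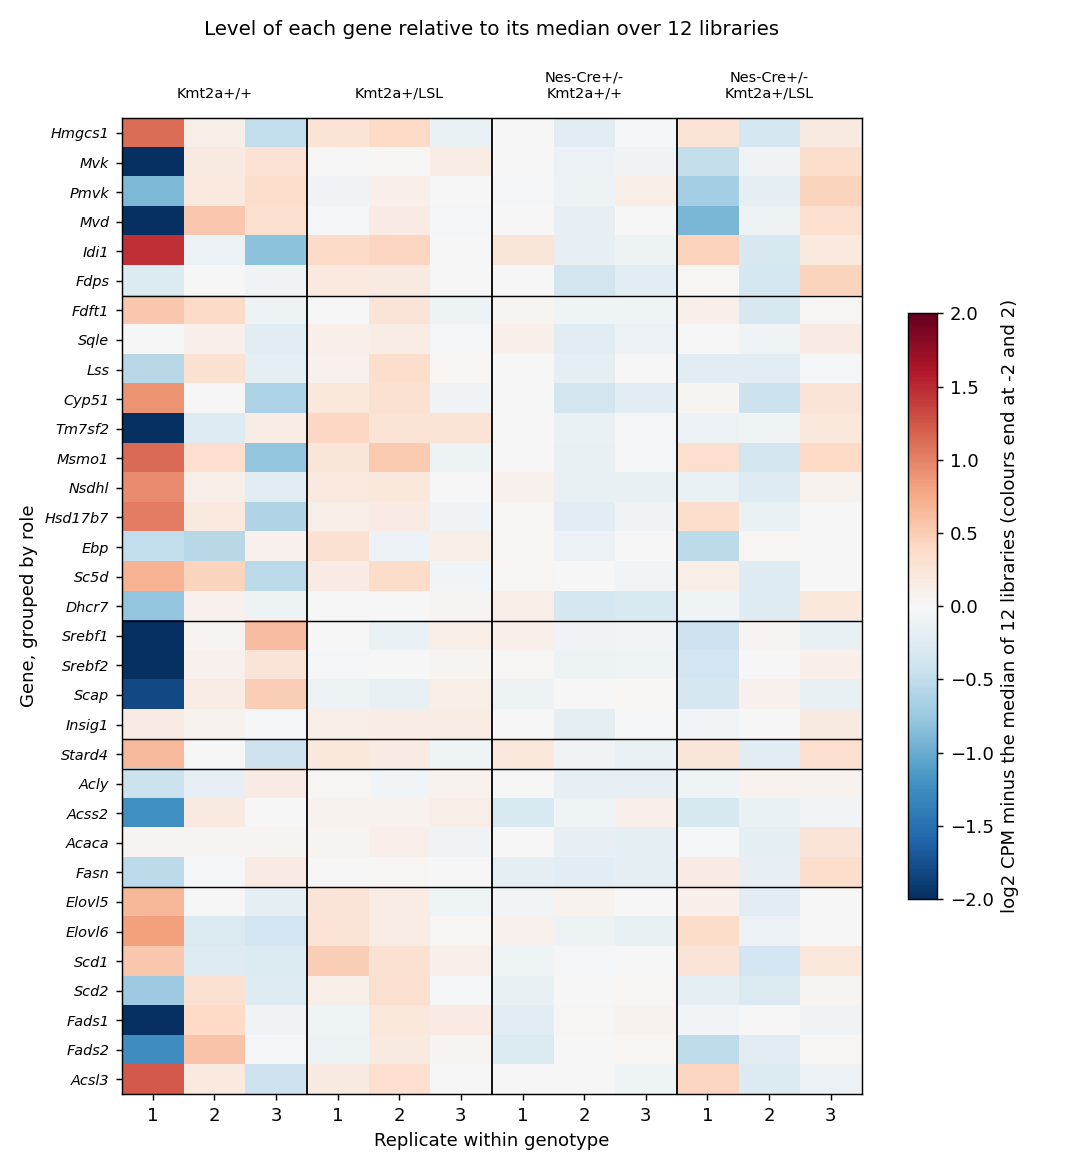
Log2 CPM of each gene minus its median over the 11 libraries other than Kmt2a+/+ replicate 1, although the figure labels name 12. Genes are in rows grouped by role and libraries in columns grouped by genotype. Red is above and blue below the median. The first Kmt2a+/+ column holds the strongest colours of both signs, and 28 of its 33 genes lie outside the range of the other 11 libraries.

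The direction of this split moved with the base composition of the genes. GC content was taken over all annotated transcripts of a gene. The 13 genes above the range had a median of 45.5% (41.1% to 52.2%), and the 15 below it had 55.3% (49.6% to 59.4%). For each library, the deviation of a gene was taken from the median of the other 11 libraries. In Kmt2a+/+ replicate 1 its Pearson correlation with GC content was -0.87 across the 33 genes, against -0.66 across 12470 genes of the table. Kmt2a+/+ replicate 3 showed the opposite slope, 0.87 over the 33 genes and 0.56 over all, and Nes-Cre+/- Kmt2a+/LSL replicate 1 showed -0.70 and -0.42. These correlations are across genes that share a library and are given as a description. With a GC offset fitted to each library, an alternative chosen after seeing the data, the typical spread of the 33 genes between replicates (median biological coefficient of variation) was 0.179 in place of 0.266. Leaving out Kmt2a+/+ replicate 1 gave 0.149, and both together 0.138. Fasn and Fdft1 had wider errors with the offset: in Kmt2a+/LSL against Kmt2a+/+ Fasn went from 0.12 (SE 0.19) to -0.44 (SE 0.35) and Fdft1 from -0.24 (SE 0.19) to -0.44 (SE 0.27), as log2 fold changes.

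**Figure D4:**
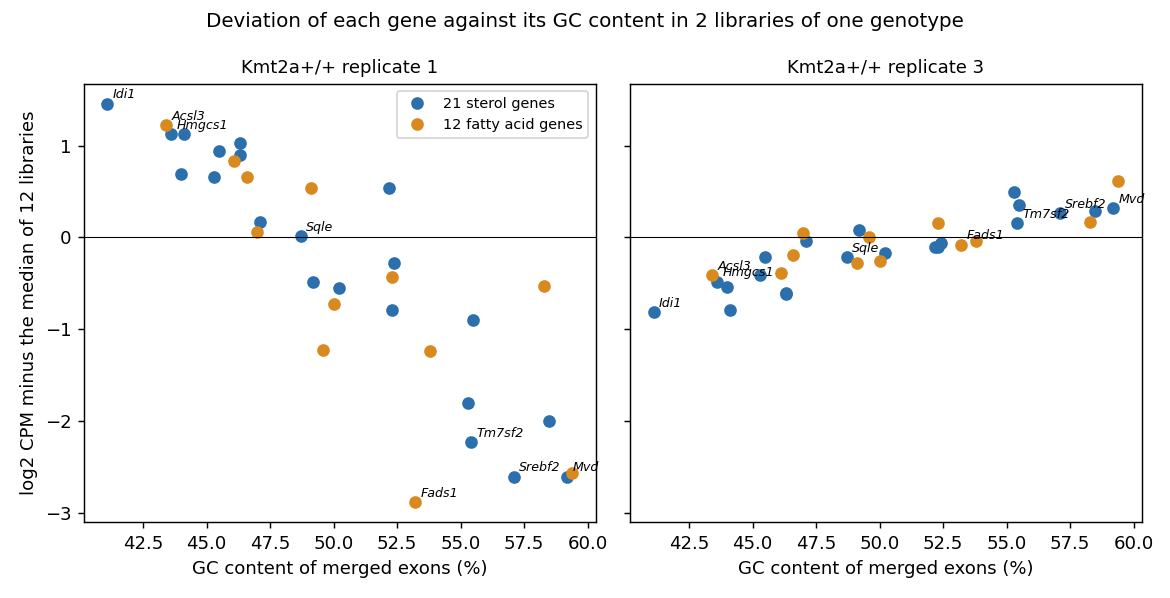
Deviation of each of the 33 genes against the GC content of all its annotated transcripts in Kmt2a+/+ replicate 1 and replicate 3. The deviation is log2 CPM minus the median of the 11 libraries other than Kmt2a+/+ replicate 1. The axis labels name 12 libraries and merged exons instead. Sterol genes are in blue and fatty acid genes in orange. The 2 libraries of the same genotype slope in opposite directions, with Pearson correlations of -0.87 and 0.87. These correlations were taken with each library set against the median of the other 11.

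The first comparison asks what loss of 1 working Kmt2a allele does, Kmt2a+/LSL against Kmt2a+/+. No gene of either pathway passed the test. Of the 33 genes, 20 were higher and 13 lower in Kmt2a+/LSL, with a median log2 fold change of 0.10, and over all genes tested 50.1% were higher with a median of 0.00. The median was 0.06 over the 21 sterol genes and 0.13 over the 12 fatty acid genes. All 4 regulators had positive estimates (0.06 to 0.32), 4 of 6 mevalonate enzymes and 5 of 11 ring enzymes did, and the largest standard errors were those of Mvd (0.57), Fads1 (0.54) and Srebf1 (0.53).

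Tm7sf2 had the smallest p of the 33, with a log2 fold change of 0.79 (SE 0.42, 95% interval -0.14 to 1.72, adjusted p = 1 in edgeR's quasi-likelihood test with Benjamini-Hochberg adjustment). Ebp followed at 0.41 (SE 0.23, adjusted p = 1), from 13.4, 12.7 and 19.8 CPM in Kmt2a+/+ to 23.3, 17.3 and 20.4 in Kmt2a+/LSL. Scd2 was next at 0.31 (SE 0.24, adjusted p = 1), from 2504, 5116 and 3471 CPM to 4516, 5206 and 4066, and Lss at 0.26 (SE 0.21, adjusted p = 1), from 48.1, 86.7 and 62.4 CPM to 74.5, 89.7 and 72.3. Of these 4, Tm7sf2 alone had groups that did not overlap. It was the only such gene among the 33, and 4.05% of all genes tested had groups that did not overlap.

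Among all 17076 genes tested, edgeR called 0 (0%) at an adjusted p under 0.05 and 306 (1.79%) at an unadjusted p under 0.05, of which 0 were among the 33. Kmt2a itself, at 281 to 300 CPM in Kmt2a+/+ and 166 to 167 in Kmt2a+/LSL, was thus not called by edgeR either. The absence of edgeR calls among the 33 is therefore no measure of absent change. DESeq2's Wald test called 7 genes, again with 0 of the 33. For 23 of the 33 genes the 95% interval lay within 1 log2 unit of 0 on both sides, so that changes of 2-fold or more lay outside it. For the other 10, among them Srebf2 (-0.78 to 1.41) and Idi1 (-1.22 to 0.79), the intervals were wider. Without Kmt2a+/+ replicate 1 only Idi1 (0.14 to 1.28) and Msmo1 (-0.30 to 1.05) had intervals beyond 1 log2 unit, and Srebf2 was at -0.47 to 0.13.

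Without Kmt2a+/+ replicate 1 21 of the 33 estimates took the other sign. Hmgcs1 went from -0.21 to 0.35, Idi1 from -0.22 to 0.71 and Cyp51 from -0.07 to 0.44, while Srebf2 went from 0.32 to -0.17 and Srebf1 from 0.14 to -0.36. Of the 11 ring enzymes, 10 then had positive estimates, with a median of 0.18, and 3 of the 4 regulators negative ones, with a median of -0.26. The fatty acid median went from 0.13 to 0.01. Among the 4 genes named first, Tm7sf2 was at 0.35, Ebp at 0.32, Scd2 at 0.10 and Lss at 0.08. The other Kmt2a+/+ libraries moved them upward: without replicate 2 Scd2 was at 0.62 and Lss at 0.51, and without replicate 3 Tm7sf2 was at 1.24 and Ebp at 0.64.

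In that fit 5 of the 33 genes had an unadjusted p under 0.05, against 8.95% of all genes tested, and 0 had an adjusted p under 0.05, against 2 genes of the table (0.0118%). These were Elovl6 (log2 fold change 0.49, SE 0.16), Scd1 (0.58, SE 0.18), Idi1 (0.71, SE 0.26), Tm7sf2 (0.35, SE 0.15) and, as the only lower one, Scap (-0.37, SE 0.15), all with adjusted p = 0.551. In 10 of the 33 genes the libraries had groups that did not overlap, 5 higher and 5 lower, against 28.7% of all genes with 2 libraries against 3. The higher ones were those 4 and Insig1, and the lower ones were Mvk, Pmvk, Mvd, Srebf2 and Scap. The GC slope of Kmt2a+/+ replicate 3, now 1 of 2 libraries of its genotype, is given above, and its part in these values was not tested beyond the GC offset.

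Tm7sf2 kept a positive estimate with the GC offset, 0.76 (SE 0.20, 95% interval 0.31 to 1.20, unadjusted p = 0.00305 and adjusted p = 0.981 in edgeR), and with the offset and without Kmt2a+/+ replicate 1, 0.54 (SE 0.14, adjusted p = 0.957). With the offset it was the only one of the 33 at an unadjusted p under 0.05, against 3.77% of all genes, and 1 gene of the table (0.00586%) had an adjusted p under 0.05. With the offset and without that library there were 4 of the 33, Tm7sf2, Scd1 (0.55), Elovl6 (0.34) and Scap (-0.19), against 4.52% of all genes, and 2 genes of the table (0.0118%) had an adjusted p under 0.05. Idi1 was then at 0.35 (SE 0.17), lower than the 0.71 without the offset. The shift of the whole table under the offset was -0.05 with 12 libraries.

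**Figure D5:**
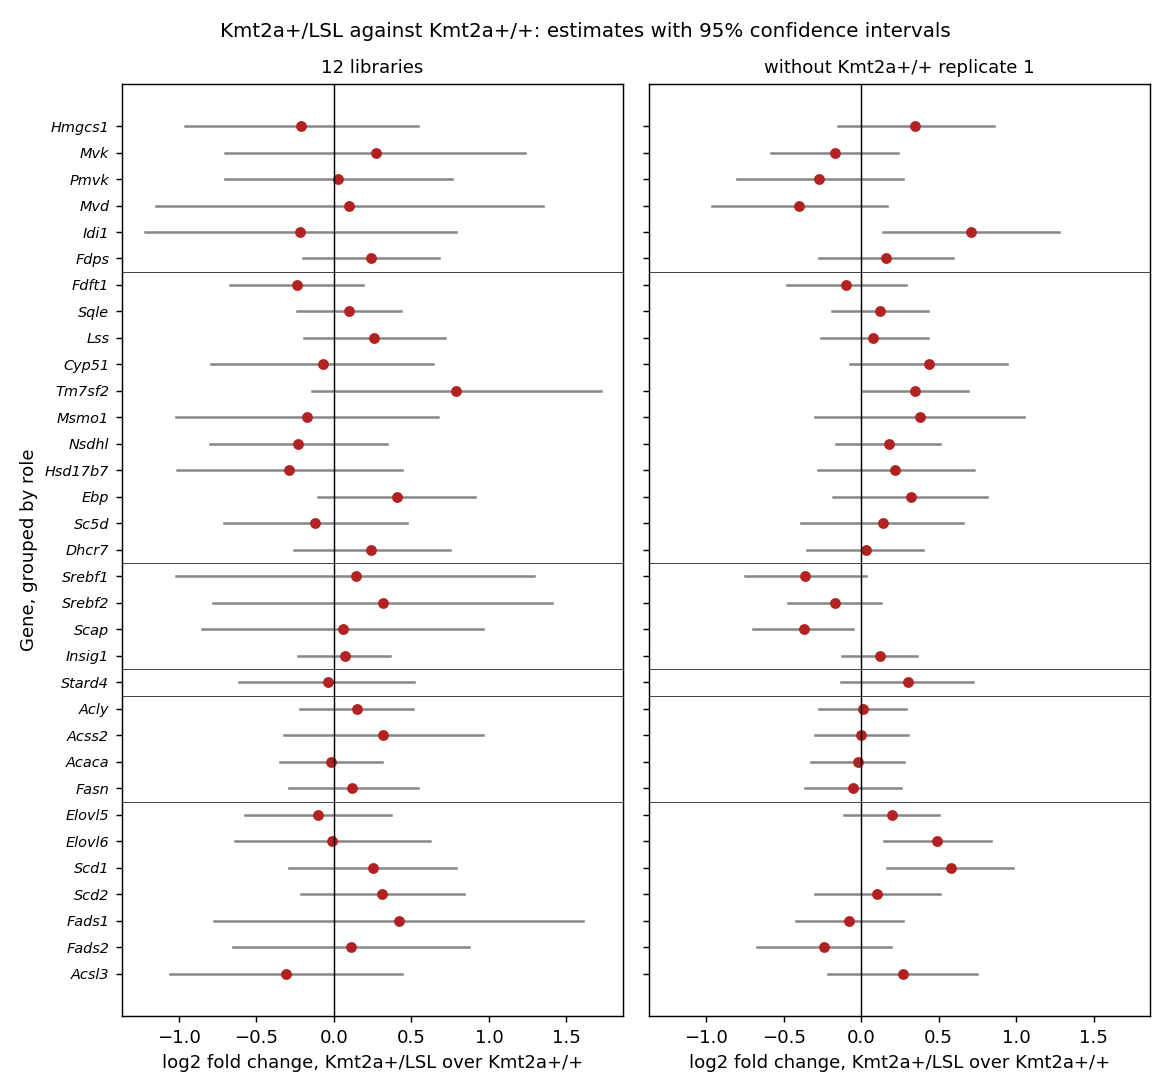
Log2 fold changes of the 33 genes, Kmt2a+/LSL over Kmt2a+/+, with 95% confidence intervals, from the fit of 12 libraries (left) and without Kmt2a+/+ replicate 1 (right). With 12 libraries every interval includes 0, and Tm7sf2 has the largest estimate at 0.79; without that library the intervals narrow and Idi1, Tm7sf2, Elovl6, Scd1 and Scap exclude 0 before adjustment.

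The second comparison, Nes-Cre+/- Kmt2a+/LSL against Kmt2a+/LSL, addresses removal of the cassette and shares the Kmt2a+/LSL libraries with the first. The groups differ in the Cre transgene as well as in the cassette, and within this comparison the effects of both cannot be told apart. Nearly all estimates were small and negative, at 30 of the 33 genes, with a median of -0.14 and a range of -0.32 to 0.11. Over all genes tested 50.4% were higher and the median was 0.00. Astrocyte markers (6 of 6 lower, median -0.40) and oligodendrocyte markers (5 of 5 tested lower, median -0.44) moved the same way, and their part in the result was not tested. The exceptions among the 33 were Fasn at 0.11, Stard4 at 0.03 and Hsd17b7 at 0.02.

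The smallest p was that of Lss, at 74.5, 89.7 and 72.3 CPM in Kmt2a+/LSL against 60.6, 60.5 and 68.8 with the transgene (log2 fold change -0.32, SE 0.21, adjusted p = 1 in edgeR). Scd2 (-0.28, SE 0.24), Ebp (-0.25, SE 0.23) and Scd1 (-0.25, SE 0.25) followed, each with an adjusted p of 1. Single libraries moved these values by over 1.5 times: Ebp was at -0.09 without Nes-Cre+/- Kmt2a+/LSL replicate 1 and at -0.14 without Kmt2a+/LSL replicate 1, Scd1 at -0.07 without Nes-Cre+/- Kmt2a+/LSL replicate 2 and at -0.15 without Kmt2a+/LSL replicate 1, and Lss and Scd2 at -0.21 and -0.18 without Kmt2a+/LSL replicate 2. The groups did not overlap for 3 of the 33 genes, Lss, Tm7sf2 (-0.30, SE 0.42) and Acss2 (-0.25, SE 0.29), all lower with the transgene, against 7.1% of all genes tested. Acss2 lay at 44.9, 45.2 and 46.8 CPM in Kmt2a+/LSL and at 34.4, 38.9 and 41.4 in Nes-Cre+/- Kmt2a+/LSL.

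Of all genes, 0 (0%) had an adjusted p under 0.05 and 275 (1.61%) an unadjusted p under 0.05, with 0 of the 33 in both, and DESeq2 called 7 genes and 0 of the 33. Without Kmt2a+/+ replicate 1, which is in neither group but enters the filter, the normalization and the shared estimate of the spread, Lss (-0.33, SE 0.14) and Tm7sf2 (-0.32, SE 0.14) had an unadjusted p under 0.05, against 3.89% of all genes, with adjusted p = 1 for both in edgeR. With the GC offset as well, Lss (-0.30, SE 0.13) was the only one, against 4.89% of all genes. The number of lower genes moved most with 1 library. Without Nes-Cre+/- Kmt2a+/LSL replicate 2 20 of 33 were lower, with a median of -0.06. That library was the lowest of its genotype for Hmgcs1 (427 CPM), Cyp51 (131 CPM), Fdft1 (58.1 CPM) and Msmo1 (63 CPM).

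The third comparison asks what the transgene does on wild-type alleles, Nes-Cre+/- Kmt2a+/+ against Kmt2a+/+, and shares the Kmt2a+/+ libraries with the first. Of the 33 genes, 14 were higher and 19 lower with the transgene, with a median of -0.08, against 52% higher and a median of 0.01 over all genes. The smallest p was that of Fdft1, at 105, 94.3 and 67.6 CPM in Kmt2a+/+ and 75.4, 68.3 and 68.2 in Nes-Cre+/- Kmt2a+/+ (log2 fold change -0.33, SE 0.19, adjusted p = 1 in edgeR). Nsdhl (-0.43, SE 0.26), Acsl3 (-0.53, SE 0.34) and Hmgcs1 (-0.48, SE 0.34) followed, with an adjusted p of 1 each. Acaca was the only one of the 33 with groups that did not overlap, against 4.35% of all genes, at 147, 147 and 146 CPM in Kmt2a+/+ and 141, 126 and 123 in Nes-Cre+/- Kmt2a+/+ (-0.17, SE 0.15). Other genes hold 33.5% of the 31-base words of Acaca, 31.9% of those of Fdft1, 27.9% of those of Fdps and 27.1% of those of Idi1, which makes the estimated counts of these 4 genes uncertain.

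Of all genes, 0 (0%) had an adjusted p under 0.05 and 239 (1.4%) an unadjusted p under 0.05, with 0 of the 33 in both, and DESeq2 called 3 genes and 0 of the 33. Without Kmt2a+/+ replicate 1 11 of the 33 genes were higher and 22 lower, and 23 of the 33 estimates took the other sign, among them Hmgcs1 at 0.07 and Acsl3 at 0.04. Nsdhl was at -0.03 and Fdft1 at -0.20. Scap (-0.36, SE 0.15, adjusted p = 0.733 in edgeR) was in that fit the only one of the 33 at an unadjusted p under 0.05, against 6.09% of all genes, and 0 genes of the table (0%) had an adjusted p under 0.05. In 9 of the 33 the libraries had groups that did not overlap, 2 higher (Elovl6 and Scd1) and 7 lower (Mvk, Pmvk, Mvd, Srebf2, Scap, Acaca and Fasn), against 29.5% of all genes.

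With the GC offset and all 12 libraries, 8 of the 33 genes were higher and 25 lower with the transgene. Fasn went from -0.09 (SE 0.19) to -0.71 (SE 0.35) and Fdft1 from -0.33 to -0.55 (SE 0.27). Acsl3 (-0.35, SE 0.16) and Nsdhl (-0.34, SE 0.15) then had an unadjusted p under 0.05, with adjusted p = 0.966 for both in edgeR, against 3.07% of all genes, and Scap was at 0.01 (SE 0.17). With the offset and without Kmt2a+/+ replicate 1 these were Scap (-0.20, SE 0.09) and Acaca (-0.28, SE 0.13), with adjusted p = 1, against 3.59% of all genes.

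The fourth comparison sets the LSL allele against wild type where both carry the transgene, Nes-Cre+/- Kmt2a+/LSL against Nes-Cre+/- Kmt2a+/+, and shares libraries with the second and the third. Of the 33 genes, 18 were higher and 15 lower, with a median of 0.07 against 0.00 over all genes. Fasn had the smallest p (log2 fold change 0.33, SE 0.19, adjusted p = 1 in edgeR) and was the only one of the 33 with groups that did not overlap, against 6.68% of all genes. Its values of 245, 194 and 278 CPM lay above 190, 189 and 193, the closest pair by a narrow margin. Fdps (0.26, SE 0.20), Acaca (0.13, SE 0.15) and Insig1 (0.12, SE 0.13) followed with an adjusted p of 1 each. Over the alternative settings Fdps ranged from 0.04 to 0.43, Acaca from -0.00 to 0.23 and Insig1 from 0.04 to 0.16.

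Of all genes, 0 (0%) had an adjusted p under 0.05 and 190 (1.11%) an unadjusted p under 0.05, with 0 of the 33 in both, and DESeq2 called 3 genes and 0 of the 33. Without Kmt2a+/+ replicate 1, Fasn (0.32, SE 0.13, adjusted p = 1 in edgeR) had an unadjusted p under 0.05, against 3.23% of all genes. With the GC offset as well, Fasn (0.50, SE 0.17) was again the only one, against 3.87% of all genes. With the offset and all 12 libraries Fasn was at 0.50 (SE 0.35, 95% interval -0.26 to 1.26), behind Acly (0.17, SE 0.10) and Fdps (0.31, SE 0.20) in the order of p, and none of the 33 had an unadjusted p under 0.05. Without Nes-Cre+/- Kmt2a+/LSL replicate 3, the highest library for Fasn, Fasn was at 0.21, 15 of the 33 genes were higher and 18 lower, and the median was -0.02. Without Nes-Cre+/- Kmt2a+/LSL replicate 2 the counts were 22 and 11, and with the GC offset 23 and 10.

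The interaction asks whether the effect of the LSL allele differed with and without the transgene. Among the 33 genes 17 estimates were positive and 16 negative, with a median of 0.00. The smallest p was that of Ebp (-0.52, SE 0.33), followed by Scd2 (-0.41, SE 0.34), Lss (-0.35, SE 0.29) and Tm7sf2 (-0.72, SE 0.60), each with an adjusted p of 1 in edgeR. Of all genes, 0 (0%) had an adjusted p under 0.05 and 295 (1.73%) an unadjusted p under 0.05, with 0 of the 33 in both, and DESeq2 called 10 genes and 0 of the 33. The intervals were wide, for example -2.03 to 0.59 for Tm7sf2, and 13 of the 33 lay within 1 log2 unit of 0. They narrowed without Kmt2a+/+ replicate 1, to -0.74 to 0.16 for Tm7sf2, and only those of Idi1, Msmo1, Ebp, Scd1 and Mvd then reached beyond 1 log2 unit. Without Kmt2a+/+ replicate 1, 23 of the 33 estimates took the other sign, 14 were positive and 19 negative, and the median was -0.06. Ebp was then at -0.44, Tm7sf2 at -0.29, Scd2 at -0.21 and Lss at -0.18. Other alternative settings moved them the other way. Over all settings Ebp ranged from -0.75 to -0.36, Tm7sf2 from -1.17 to -0.29, Scd2 from -0.72 to -0.18 and Lss from -0.60 to -0.16.

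The rest of the lipid pathway gave no calls either. In Kmt2a+/LSL against Kmt2a+/+, 0 genes of the 6 further lists had an adjusted or an unadjusted p under 0.05 with 12 libraries in edgeR. Of 10 other sterol and isoprenoid enzymes 7 were higher (median 0.10), of 3 genes for SREBP cleavage and retention 2 (0.06), and of 6 LXR receptors and targets, which answer to surplus sterol, 2 (-0.17). Of 11 genes for sterol uptake, storage and transport 10 were higher (0.14), of 19 other fatty acid enzymes 12 (0.08) and of 12 genes of fatty acid oxidation 7 (0.05). The genes with the smallest p in these lists were Pdss1 (-0.56, SE 0.42), Mbtps2 (-0.38, SE 0.39), Mylip (-0.73, SE 0.41), Soat1 (0.12, SE 0.16), Elovl7 (0.48, SE 0.25) and Acadl (-0.20, SE 0.20), each with an adjusted p of 1. Pdss1, Mbtps2 and Acadl took the other sign without Kmt2a+/+ replicate 1, at 0.22, 0.32 and 0.08, and the uptake list then had 4 of 11 genes higher (median -0.12).

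The genes were also read as a group across libraries, whatever the genotype. The mean log2 CPM of the 17 mevalonate and ring enzymes was 5.85, 6.09 and 5.76 in Kmt2a+/+ and 6.12, 6.20 and 5.97 in Kmt2a+/LSL. With the transgene it was 6.01, 5.79 and 5.89 for Kmt2a+/+ and 5.89, 5.75 and 6.16 for Kmt2a+/LSL. The range was under 1 log2 unit and the genotypes overlapped. Kmt2a+/LSL replicate 2 was highest and Nes-Cre+/- Kmt2a+/LSL replicate 2 lowest.

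Each enzyme was left out of the mean it was correlated with. Sqle (0.87), Fdps (0.82) and Lss (0.70) had the highest correlations over the 12 libraries. Insig1 (0.65), Acaca (0.69) and Scd2 (0.68), which are not among the enzymes, came close. The median was 0.26 over the 33 genes and 0.05 over 12545 genes of the table, for which the mean of all 17 enzymes was used. Over the 11 libraries without Kmt2a+/+ replicate 1 the medians were 0.58 and 0.02, and 12 of the 17 enzymes were over 0.5, against 5.76% of all genes. In these libraries 4 of the 33 genes were negative: Scap (-0.46), Srebf1 (-0.33), Ebp (-0.12) and Acly (-0.06). Hmgcs1 went from 0.21 to 0.80. The points share depth, base composition and genotype, so these values are a description.

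The 10 genes outside the list that followed the enzyme mean most closely over 12 libraries were Sar1a (0.90), Cyth2 and Chtop (0.81), Nrxn3 and Dok5 (0.80), Calr and Sqor (0.77), Nol4 and Gp1ba (0.76) and Dnaja3 (0.73). Sar1a encodes a GTPase of the COPII coat, the vesicle coat of the endoplasmic reticulum. Without Kmt2a+/+ replicate 1 its correlation was 0.91.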

How the data were processed

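Poly(A) RNA of 12 cultures, 3 per genotype, was sequenced. The authors pseudoaligned the reads to the mm10 (GRCm38) transcriptome with kallisto 0.48.0, and summed transcripts to genes through tximport, with biomaRt for the annotation. What they deposited are whole-number estimated counts for each gene without normalization, and whether a sequence bias correction was used is not given in the sources used here. Genotypes and replicate numbers come from the labels. The GRCm38 annotation gave symbols for 18718 of 18911 genes.

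The 17076 genes whose counts summed to more than 10 and were above 0 in 2 or more libraries were normalized with TMM and tested with the quasi-likelihood F-test of edgeR 4.0.16 (two-sided) in R 4.3.3, with genotype as the only term and all 12 libraries in 1 fit. The test had been planned for counts and was applied to the estimated counts as given. P-values were adjusted over all genes with the Benjamini-Hochberg method, and an adjusted p under 0.05 was called. A prior count of 2 was added for log2 CPM. Intervals are 95% confidence intervals. Length is that of the merged exons of a gene. GC content is that of all its annotated transcripts, where a base shared by several transcripts counts in each. The chi-square per gene between replicates was at least 9.58, so no pair of libraries was alike within sampling noise.

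The 33 genes, the lists and the comparisons were chosen with earlier results of these data known, so the choice was not independent of the data, although no measured value entered the rule for the 33. All 33 are named with their levels. Fold changes with tests are given for the 4 with the smallest p in each comparison and for those below 0.05, and others were added after their values were seen. In the other lists the gene with the smallest p is named, and outside the lists the 10 genes most correlated with the mean of 17 enzymes. Alternatives were DESeq2 size factors, the Wald test of DESeq2 1.42.0, limma-voom (limma 3.58.1), no filter, a minimum of 10 counts per library, the replicate block, only the genotypes compared, the 9 libraries without Nes-Cre+/- Kmt2a+/+, and each library left out. A GC offset (loess, span 0.5), with and without Kmt2a+/+ replicate 1, was chosen after seeing the data. The edgeR fit was tested on simulated data, in which it recovered 99.5% of 200 genes changed 3-fold, with 6 false calls, at a dispersion of 0.05 (16885 genes, Kmt2a+/LSL against Kmt2a+/+). Isoforms and CUT&RUN were not analysed here.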

Additional observations from a re-analysis of the deposited data

How the results depend on the processing

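No call was made among the 33 genes (0 with an adjusted p under 0.05) in any alternative that a comparison allowed, 22 for the first and second, 21 for the third and the fourth and 20 for the interaction, of which 12 each left out 1 library. The lowest adjusted p of any of the 33 was 0.551, in the first comparison without Kmt2a+/+ replicate 1. Leaving out that library turned the sign of 21, 23 and 23 of the 33 estimates in the first comparison, the third and the interaction. For Kmt2a+/LSL against Kmt2a+/+ the sterol median lay between 0.02 and 0.16 and the fatty acid median between 0.01 (without Kmt2a+/+ replicate 1) and 0.22. For the second comparison they lay between -0.22 and -0.02 and between -0.17 and -0.06. In the fourth comparison both signs occurred, from -0.05 (without Nes-Cre+/- Kmt2a+/LSL replicate 3) to 0.12 for sterol and from -0.01 to 0.07 for fatty acid genes. In the third the ranges were -0.16 to 0.00 and -0.15 to 0.03, and in the interaction -0.07 to 0.10 and -0.14 to 0.02. The number of genes of the whole table with an adjusted p under 0.05, 0 in edgeR in every comparison, was 7, 7, 3, 3 and 10 with DESeq2's Wald test in the order of the report. With a GC offset, chosen after seeing the data, it was 1 in the first and 1 in the second comparison, and 2 and 2 with the offset and without Kmt2a+/+ replicate 1. With libraries left out one at a time it ranged from 0 to 2 in the first and from 0 to 1 in the second comparison, and the cause was not tested.

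Of the 20 fold changes with the 4 smallest p in each comparison, 3 changed sign when a library was left out: Acsl3 (0.04, range over left-out libraries -0.83 to 0.04) and Hmgcs1 (0.07, range -0.78 to 0.07) in Nes-Cre+/- Kmt2a+/+ against Kmt2a+/+ without Kmt2a+/+ replicate 1, and Acaca (-0.00, range -0.00 to 0.23) in Nes-Cre+/- Kmt2a+/LSL against Nes-Cre+/- Kmt2a+/+ without Nes-Cre+/- Kmt2a+/LSL replicate 3.

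Labels give the genotypes the same replicate numbers. Libraries with the same number deviated from the genotype means with a correlation of 0.0844 on average (-0.0717 to 0.416), with 5 of 18 pairs over 0.1, so the numbers were not taken as pairs. With the replicate block edgeR called 0 genes and 0 of the 33, and in Kmt2a+/LSL against Kmt2a+/+ the medians were 0.10 for sterol and 0.19 for fatty acid genes.

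With 3 libraries per genotype and 1 far from the rest, a 2-fold change lay within the 95% interval of 10 of the 33 genes in Kmt2a+/LSL against Kmt2a+/+, Mvd, Fads1, Srebf1, Srebf2 and Idi1 among them. Without Kmt2a+/+ replicate 1 it lay only within those of Idi1 (0.14 to 1.28) and Msmo1 (-0.30 to 1.05). Mvd was then at -0.96 to 0.17 and Fads1 at -0.42 to 0.27. At the dispersions estimated per gene (16810 genes), edgeR recovered 62% of 200 simulated 3-fold changes in that comparison. The simulated libraries were drawn independently and held no GC-dependent shift of a whole library. The 62% therefore does not measure recovery in the libraries at hand.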
